A study of Mus musculus with 4 samples.

Results

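Unc5a, Unc5b, Unc5c, Mcam, Dscam and Adora2b are 6 genes whose products have been described as receptors of netrin-1, the secreted guidance protein encoded by Ntn1. They were chosen by symbol, not by a cutoff on their values, though earlier results of these data were known. Each matched 1 of the 31054 gene rows of 4 single-cell RNA sequencing libraries from mouse skin tumours. Their levels were read in cell classes gated on marker genes, and none of the 6 was a marker. All mice carried Lgr5CreER together with floxed p53 on both chromosomes (p53fl/fl) and the reporter Rosa26-YFP+/+, among other changes. Tamoxifen activates the Cre recombinase in cells that express Lgr5, a hair follicle stem cell gene, which deletes p53 and marks the cells and their progeny with YFP. Each mouse received 4 tamoxifen injections of 2.5 mg from postnatal day 28, and tumours were seen from 7 to 9 weeks later. The 2 control libraries came from mice whose treatment label names no agent, and the 2 NP137 libraries from mice given 10 mg/kg of NP137, an antibody against netrin-1, every 2 days from 4 weeks after tamoxifen until death. Live cells were sorted without selection for YFP. The labels do not say that libraries came from separate animals, so each p-value below measures only spread within this set of libraries, which may be technical. In tests made within libraries, it is the spread left after differences between libraries are taken out.

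UNC5 proteins are transmembrane receptors with a death domain. They repel growing axons when they bind netrin, and they are called dependence receptors because without their ligand they can trigger cell death. UNC5B is the member best known from blood vessels, where it acts in endothelial tip cells, and NP137 was designed to block its binding of netrin-1. MCAM (CD146) is an adhesion molecule of endothelial cells, pericytes and melanoma cells. DSCAM is an adhesion molecule of neurons. ADORA2B is an adenosine receptor that raises cyclic AMP, and its role as a netrin receptor has been disputed.

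Of 44501 cells that passed the filters, 11969 (26.9%) stayed unassigned and the others fell into 14 classes, of which 8 had enough cells in all 4 libraries to test. Each library held 5301 to 14513 cells with a median of 2355 to 5957 UMIs (unique molecular identifiers, 1 per captured RNA molecule). Tumour cells, defined by YFP and Cdkn2a UMIs and the lack of leukocyte and endothelial UMIs, numbered 2610 and 929 in control mice, and 2383 and 522 after NP137. They split by treatment: 85.2% and 82.6% of control tumour cells, but 2.10% and 0.575% of NP137 tumour cells, were of a mesenchymal state by markers such as Col1a1, Fn1 and Zeb1. The epithelial state, by markers such as Epcam, Krt5 and Krt14, made up 8.51% and 6.03% of control tumour cells and 93.0% and 88.5% of NP137 tumour cells. State and treatment therefore largely coincide in a comparison of all tumour cells. A further limit touches the fibroblasts: 68.1% and 39.7% of control fibroblasts held a Cdkn2a UMI, against 13.8% and 18.4% of NP137 fibroblasts and 37.8%, 17.8%, 7.69% and 2.31% of macrophages in control 1, control 2, NP137 1 and NP137 2. The part of free tumour RNA or of tumour cells without a YFP UMI in the fibroblast values was not tested. Between 24 and 86 cell barcodes were shared by each pair of libraries.

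Levels below are in CPM, the UMIs of a gene per 1000000 UMIs summed over all cells of a class in 1 library. Values given as a run of 4 are in the order control 1, control 2, NP137 1, NP137 2. Since the reads come from the 3′ end of each RNA, 1 UMI stands for 1 molecule whatever the gene's length. Intervals cover counting error only.

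In GENCODE M21 on GRCm38, Unc5b lies at chr10:60762593-60831581 (minus strand), Mcam at chr9:44134469-44142727 (plus strand), Adora2b at chr11:62248984-62266453 (plus strand), Unc5a at chr13:54949411-55006018 (plus strand), Unc5c at chr3:141465216-141834924 (plus strand) and Dscam at chr16:96590840-97170752 (minus strand). All 6 are protein-coding. The promoters of Unc5b and Adora2b are shown because these genes had opposite differences between treated and control tumour cells. Each is the 250 bases upstream of the RefSeq start on GRCm38.p6, written in the direction of the gene, at chr10:60831582-60831831 for Unc5b and chr11:62248734-62248983 for Adora2b. Capitals mark the single match, on either strand, to GCGTG or ACGTG, the core of a hypoxia response element.
Unc5b: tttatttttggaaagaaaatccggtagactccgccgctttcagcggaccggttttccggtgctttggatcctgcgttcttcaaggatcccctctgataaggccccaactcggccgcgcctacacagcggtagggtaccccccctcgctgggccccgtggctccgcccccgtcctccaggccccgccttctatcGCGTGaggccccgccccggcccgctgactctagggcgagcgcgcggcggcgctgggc
Adora2b: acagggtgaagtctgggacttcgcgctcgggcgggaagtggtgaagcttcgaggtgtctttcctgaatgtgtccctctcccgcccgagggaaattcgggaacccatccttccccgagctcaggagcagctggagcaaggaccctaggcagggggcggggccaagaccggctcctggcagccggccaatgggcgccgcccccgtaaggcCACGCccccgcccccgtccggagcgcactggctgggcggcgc

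Both windows were richer in G and C than the median of 52.4% over 32851 windows of the same length, with 66.8% for Unc5b and 69.6% for Adora2b. The hypoxia core was in 38.6% of all windows, so its presence is common. The GC box GGGCGG, in 32.7% of all windows, matched 2 times in Unc5b and 6 times in Adora2b. Neither the letters CAGGTG (an E-box, in 17.2% of all windows) nor TGANTCA (an AP-1 site, in 6.75%) occurred in either window on either strand. The listed motifs do not overlap in sequence, and a match is no evidence of binding.

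Unc5b was the most widely measured of the UNC5 genes and was carried by vessels, mural cells, fibroblasts and tumour cells. Blood endothelial cells held 129, 137, 62.4 and 92.2 CPM, and pericytes or smooth muscle cells 108, 120, 89.6 and 67.5 CPM. Fibroblasts held 86.2, 55.4, 85.3 and 51.1 CPM. The ranges of these 3 classes overlapped. Keratinocytes without YFP were lower at 20.8, 13.2, 8.93 and 2.11 CPM. Macrophages or monocytes were lower still in 3 of 4 libraries, at 5.44, 9.64, 1.47 and 2.40 CPM, and neutrophils held 5.14, 29.1, 6.44 and 7.57 CPM. Tumour cells spanned the range between these groups, with 53.2 and 75.5 CPM in the controls and 18.6 and 7.73 CPM under NP137.

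The 3 members that passed the filter on low counts, Unc5b, Mcam and Adora2b, were tested in each of 8 classes against the mean of the other classes within libraries, with the quasi-likelihood test of edgeR and Benjamini-Hochberg adjustment over 12373 genes. Of these 24 tests 13 passed an adjusted p of 0.05. Such calls were common, and the share of all genes called in the same direction is given beside the first count for each class. In blood endothelial cells 2 of the 3 rose (21.2% of all genes) and 1 fell (16.9%). In pericytes or smooth muscle cells 2 of 3 rose (19.5%) and 0 fell (16.4%), and in fibroblasts 1 of 3 rose (24.9%). Keratinocytes had 2 of 3 lower (17.2%) and 0 higher (20.6%), and macrophages 2 of 3 lower (23.1%) and 1 of 3 higher (24.4%). Tumour cells had 1 of 3 lower (22.4%), T or NK cells 1 of 3 lower (19.1%), and neutrophils 0 higher (25.7%) and 0 lower (26.1%).

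For Unc5b the log2 difference from the mean of the other classes was 1.90 (SE 0.34, adjusted p = 5.6e-05) in blood endothelial cells. It was 1.80 (SE 0.34, adjusted p = 0.000173) in pericytes or smooth muscle cells and 1.50 (SE 0.33, adjusted p = 0.00069) in fibroblasts. Unc5b was lower in keratinocytes by a log2 difference of -1.75 (SE 0.48, adjusted p = 0.00564) and in macrophages of -3.11 (SE 0.50, adjusted p = 1.2e-05). The keratinocyte call was lost without control 2 (adjusted p = 0.0561). In tumour cells of both treatments together the difference was -0.12, and in T or NK cells it was 0.85 (adjusted p = 0.138). In the order of mean levels, Unc5b ran from blood endothelial cells through pericytes, fibroblasts, T or NK cells, tumour cells, neutrophils and keratinocytes to macrophages. No 2 neighbours in it differed, with adjusted p from 0.110 to 0.947. Blood endothelial cells over pericytes, the first pair, gave a log2 difference of 0.09 (SE 0.49), where 26.4% of genes were called.

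**Figure D1:**
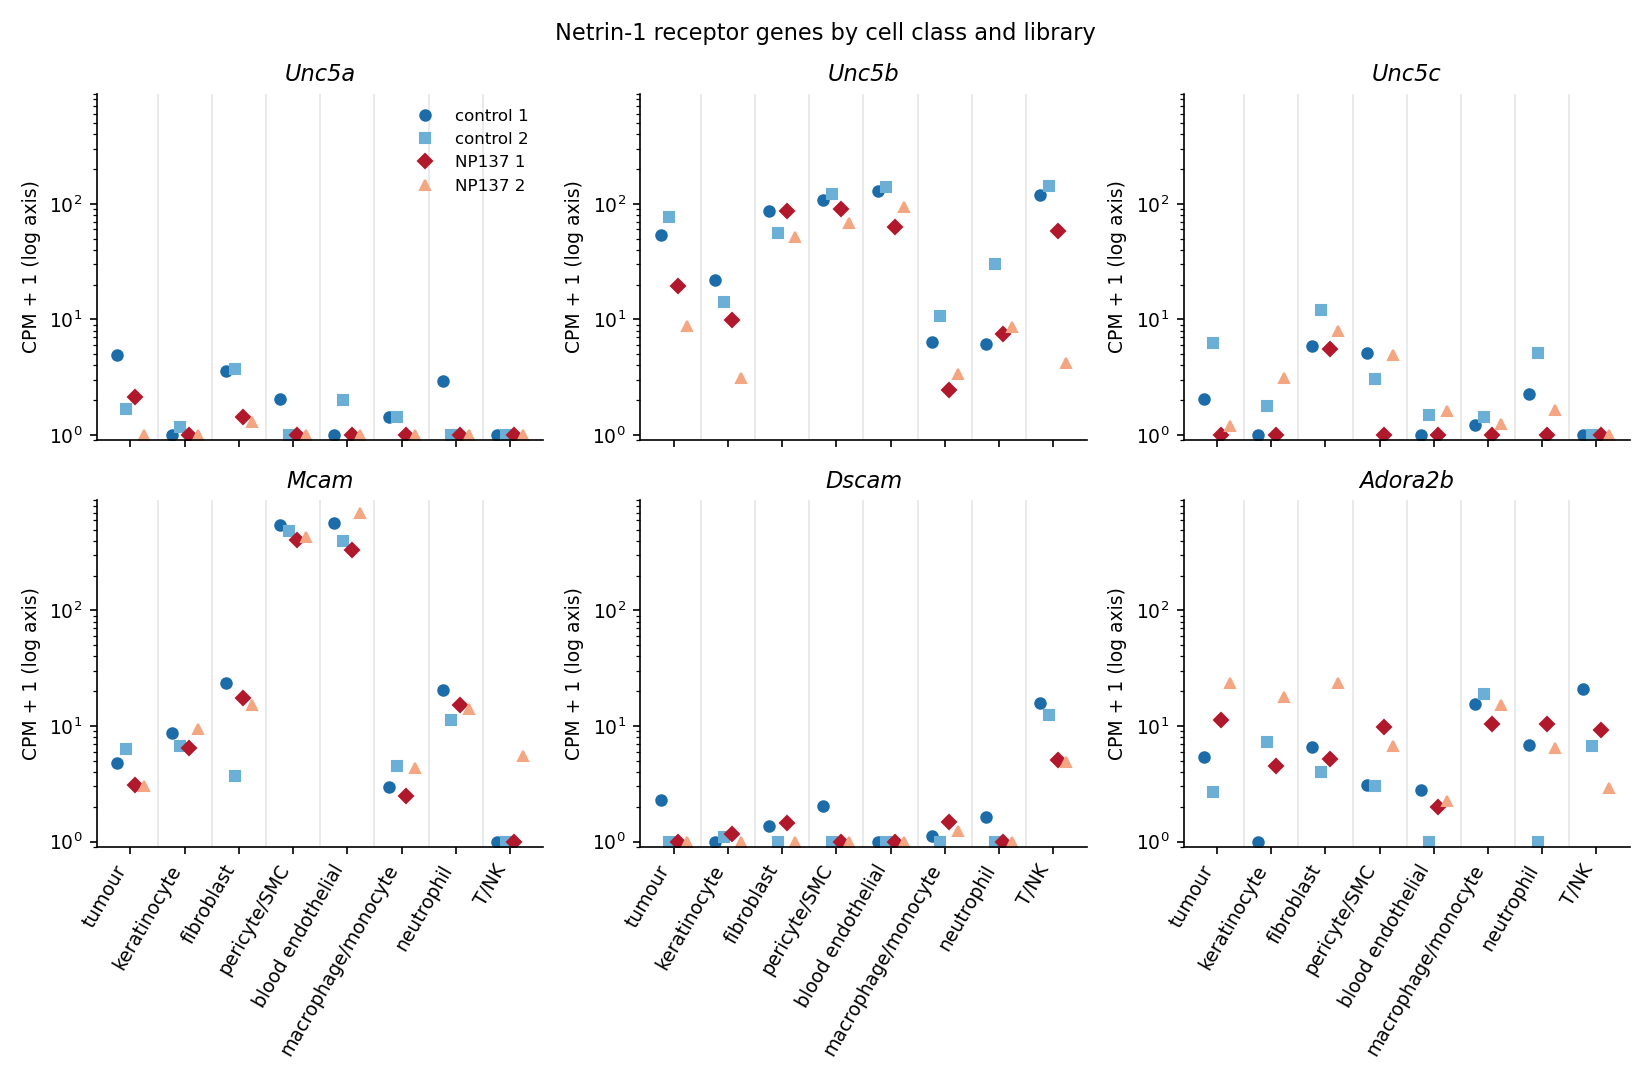
CPM + 1 of each of the 6 genes (panels, log axes) in the 8 tested classes, 1 point for each control and NP137 library, so that a point at 1 is a count of 0. Mcam stands at 332 CPM or more in every endothelial and pericyte sum and at or below 22.4 CPM in every other class, while Unc5b spreads over tumour, vessel, mural and fibroblast classes.

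Mcam was highest in vessels and mural cells by a wide margin among the tested classes. Blood endothelial cells held 571, 394, 332 and 699 CPM and pericytes or smooth muscle cells 548, 482, 404 and 429 CPM. The highest value of any other tested class was 22.4 CPM, in control 1 fibroblasts, so these groups did not overlap. Neutrophils held 19.3, 10.4, 14.0 and 13.1 CPM, tumour cells 3.78, 5.34, 2.10 and 2.03 CPM, and T or NK cells none in 3 libraries and 4.49 CPM (7 UMIs) in NP137 2. After each cell was thinned to 2000 UMIs, 63.1%, 57.6%, 48.6% and 72.7% of endothelial cells and 60.9%, 61.9%, 47.0% and 52.3% of pericytes held an Mcam UMI. In tumour cells that share was 0.891%, 0.976%, 0.383% and 0.385%.

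The log2 difference of Mcam from the mean of the other classes was 5.36 (SE 0.22, adjusted p = 8.9e-17) in blood endothelial cells and 5.34 (SE 0.22, adjusted p = 2.2e-16) in pericytes or smooth muscle cells. In the order of levels, pericytes stood above neutrophils, the next class, by 4.37 (SE 0.42, adjusted p = 3.4e-09), where 56.6% of genes were called. Blood endothelial cells and pericytes differed by 0.02 (SE 0.34, adjusted p = 0.993). Further down, fibroblasts stood above keratinocytes by 1.08 (SE 0.42, adjusted p = 0.0449, where 39% of genes were called), although their levels overlapped. Mcam was lower in tumour cells by -2.83, in macrophages by -3.05 and in keratinocytes by -1.57. These last 3 calls were lost without NP137 2, whose removal leaves no Mcam UMI in any T or NK sum.

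Adora2b was low in every tested class, and macrophages stood above the mean of the others. Macrophages or monocytes held 14.6, 18.0, 9.31 and 14.2 CPM, a log2 difference of 1.91 (SE 0.48, adjusted p = 0.00208) from the mean of the other classes. Blood endothelial cells held 1.79, 0, 1.01 and 1.25 CPM and were lower by -3.16 (SE 0.93, adjusted p = 0.00893). They stood last in the order of mean levels, below neutrophils by a log2 difference of 3.35 (SE 1.09, adjusted p = 0.0115, where 54.3% of genes were called), and no other neighbours in that order differed. Fibroblasts held 5.58, 2.99, 4.15 and 22.6 CPM. NP137 2 stood apart by this fibroblast level. It held 62.6% of all Adora2b UMIs, with 1028 in fibroblasts against 60, 11 and 28 in the other libraries. Such counts also follow depth, since its file held 149021188 UMIs against 88076950, 73685280 and 69517664.

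Unc5c, a UNC5 receptor known from the developing cerebellum, was mainly a fibroblast transcript. Fibroblasts held 4.93, 11.1, 4.59 and 6.94 CPM, and 441 of its UMIs, 55.0% of the total. Pericytes, the class next in order of mean levels, held at most 4.14 CPM. Unc5c was too low to test between classes. Tumour cells held 37, 133, 0 and 2 UMIs (1.07, 5.26, 0 and 0.193 CPM). The control 2 value was above the fibroblasts of control 1 and NP137 1, so the ranges of tumour cells and fibroblasts overlapped. No Unc5c UMI was found in T or NK cells, where 3 UMIs, the limit that a count of 0 allows, are 14.8, 8.64, 12.3 and 1.92 CPM. The same limit in NP137 1 tumour cells is 0.126 CPM, and the 2 UMIs of NP137 2 tumour cells have a 95% exact Poisson interval of 0.0234 to 0.698 CPM.

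Unc5a and Dscam, both known mainly from neurons, were sparse. Tumour cells, the class with the most UMIs per cell, held 57.6% of Unc5a UMIs, with 137, 17, 27 and 0 UMIs. Their levels were 3.95, 0.672, 1.13 and 0 CPM, and those of fibroblasts 2.60, 2.72, 0.444 and 0.308 CPM. The ranges overlapped, and fibroblasts stood first in the order of mean levels. In control 1, 23 of the fibroblast UMIs lay in a cell cluster, described below, that was mostly tumour cells. Control 1 carried 67.8% of all Unc5a UMIs. Dscam had 120 UMIs in all 4 libraries, of which 80 were in control 1. Its 45 tumour UMIs lay in 42 cells, every one in control 1, and 44 of these UMIs were in the mesenchymal state. T or NK cells held 14.8, 11.5, 4.11 and 3.85 CPM of Dscam, on 3, 4, 1 and 6 UMIs in 14 cells. Tumour cells, the class next in order, held at most 1.30 CPM. In NP137 1 a count of 1 UMI already gives T or NK cells 4.11 CPM. The shallow T or NK sums therefore do not allow a comparison of these ranges.

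Within tumours, Unc5b followed the mesenchymal state. Control mesenchymal cells held 57.9 and 80.3 CPM, and the epithelial cells of the same libraries 26.8 and 5.67 CPM. In NP137 1, 50 mesenchymal tumour cells held 73.3 CPM (23 UMIs, 95% exact Poisson interval 46.4 to 110), against 15.9 CPM in its epithelial cells. NP137 2 had 3 mesenchymal cells, too few to use, and its epithelial cells held 5.80 CPM. Cells of mixed state held 31.5, 68.3, 58.4 and 18.6 CPM. The mesenchymal value was thus above the epithelial one in each of the 3 libraries, and the lone NP137 value lay between the 2 control values.

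In the fit with library as a block, 1 of the 4 tested members rose in the mesenchymal state, where 7.48% of 12584 genes did. Unc5b was higher by a log2 difference of 2.04 (SE 0.45, edgeR adjusted p = 0.0211), beside a median of -0.07 over all genes. Without NP137 1 the difference was 2.14 with an adjusted p of 0.158. Mcam was 4.31 and 5.62 CPM in control mesenchymal cells and 0.923 and 0.811 CPM in control epithelial cells. These epithelial values are near the floor, and that of control 2 is 1 UMI. In the fit, which also held NP137 1, the log2 difference of Mcam was 2.01 (SE 0.68) and missed the threshold (adjusted p = 0.0880). Adora2b differed by -0.76 (adjusted p = 0.436). Unc5a differed by 0.08, and Unc5c and Dscam were too low to test.

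**Figure D2:**
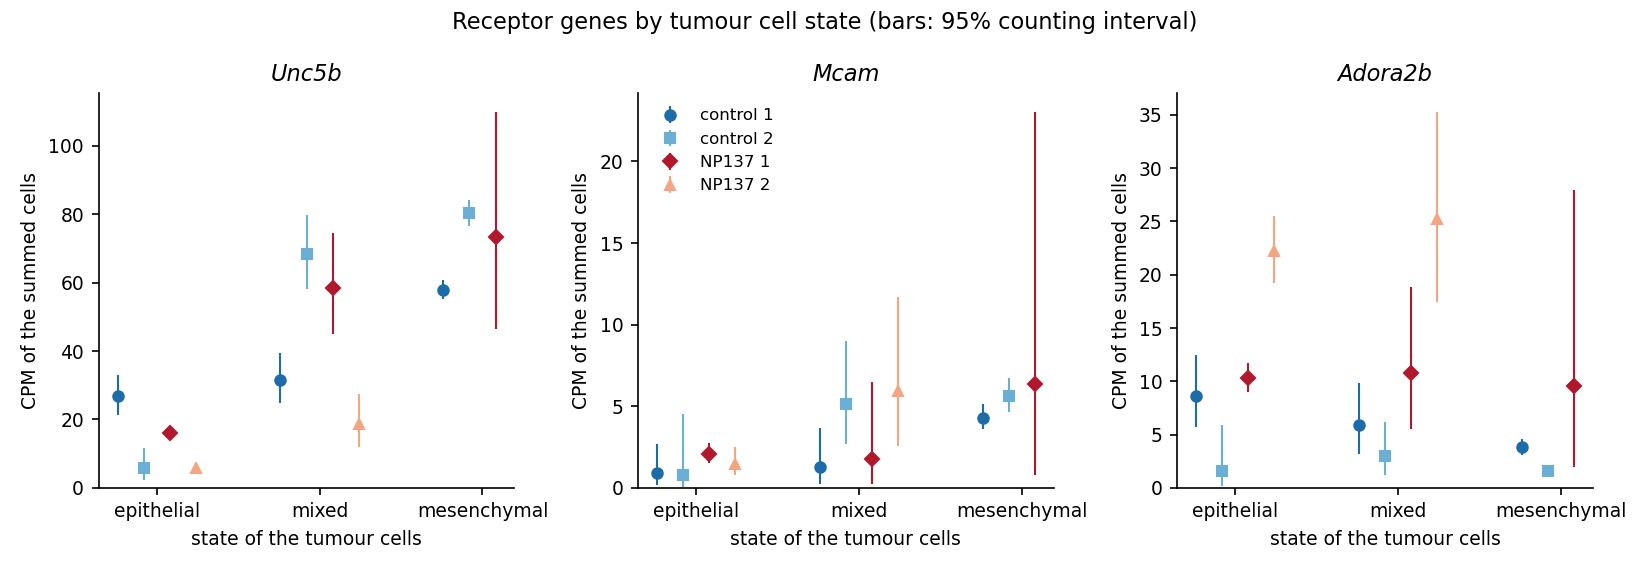
CPM of Unc5b, Mcam and Adora2b in tumour cells of epithelial, mixed and mesenchymal state, 1 point per library with at least 20 cells of a state, with 95% exact Poisson intervals. Unc5b rises from 5.67 to 26.8 CPM in epithelial cells to 57.9 to 80.3 CPM in mesenchymal cells, including the 73.3 CPM of NP137 1.

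Against control, the tumour cells of NP137 mice as a whole had less Unc5b and more Adora2b, and neither difference passed the threshold. With 2 libraries in each group, 0 of the 5 tested members were called by edgeR's quasi-likelihood test, while 217 of 13690 genes were (1.59%). Leaving out control 1 gave 169 such genes, leaving out NP137 1 gave 299, and leaving out either of the other 2 libraries (control 2, NP137 2) gave 0. Without adjustment 3 of the 5 had a p below 0.05, and DESeq2 called 3, beside 16% of all genes. Unc5b was lower in both NP137 libraries than in both controls, by a log2 fold change of -2.05 (SE 0.46, adjusted p = 0.0878; 0.00104 with DESeq2). Adora2b was higher in both NP137 libraries, at 4.39, 1.70, 10.3 and 22.6 CPM, by 2.66 (SE 0.70, adjusted p = 0.109; 0.00233 with DESeq2). Unc5c had 170 UMIs in control and 2 in NP137 tumour cells, a log2 fold change of -5.15 (SE 1.62, adjusted p = 0.145; 0.0152 with DESeq2). Mcam differed by -0.90 (SE 0.50, adjusted p = 0.33) and Unc5a by -1.73 (SE 1.52, adjusted p = 0.529).

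Of the 5 tested members, 3 were lower in both NP137 libraries without overlap, against 40.1% of all genes, and 1 was higher, against 18.5%. From the pooled UMIs, the Unc5c level was 48.5 times as high in control as in NP137 tumour cells (95% exact interval 13.2 to 403.5), and 133 of the 170 control UMIs came from control 2. For Unc5a the same ratio was 3.25 (2.15 to 5.095), and without control 1 the log2 fold change turned to 0.14. After thinning to 2000 UMIs, 10.7%, 11.5%, 3.66% and 1.15% of tumour cells held an Unc5b UMI. The mean share was 11.1% in control and 2.41% in NP137 (exact 2-sided permutation test over 6 assignments, p = 0.33, the smallest this design allows). Control 1 and NP137 1 were deposited under names with the same date and the other 2 libraries under other dates, and what the dates mark is not stated. Within that pair Unc5b was 53.2 and 18.6 CPM and Adora2b 4.39 and 10.3 CPM, with 1 library on each side and no test. Unthinned shares with an Unc5b UMI were 39.5%, 61.6%, 14.8% and 10.7%. In macrophages, a class with little Unc5b, the thinned share was 1.18%, 0.957%, 0.194% and 0.223%, at median depths of 3905, 9798, 2244 and 6036 UMIs, against 11138, 26103, 9536 and 18460 UMIs in tumour cells. In each library the share in tumour cells was above that in macrophages, and in both classes it was lower in both NP137 libraries than in both controls. The part of free RNA or of depth in these shares was not tested.

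When epithelial-state tumour cells alone were compared, a choice made after the data were seen, the Unc5b difference shrank to -0.47 (SE 0.75, adjusted p = 0.881). Levels there were 26.8, 5.67, 15.9 and 5.80 CPM, and the treated and control libraries overlapped. Adora2b was 8.62, 1.62, 10.3 and 22.2 CPM in the same cells, a log2 fold change of 1.70 (SE 0.74, adjusted p = 0.666). No gene of 11247 was called in these cells. These sums rest on 222 and 56 control cells.

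**Figure D3:**
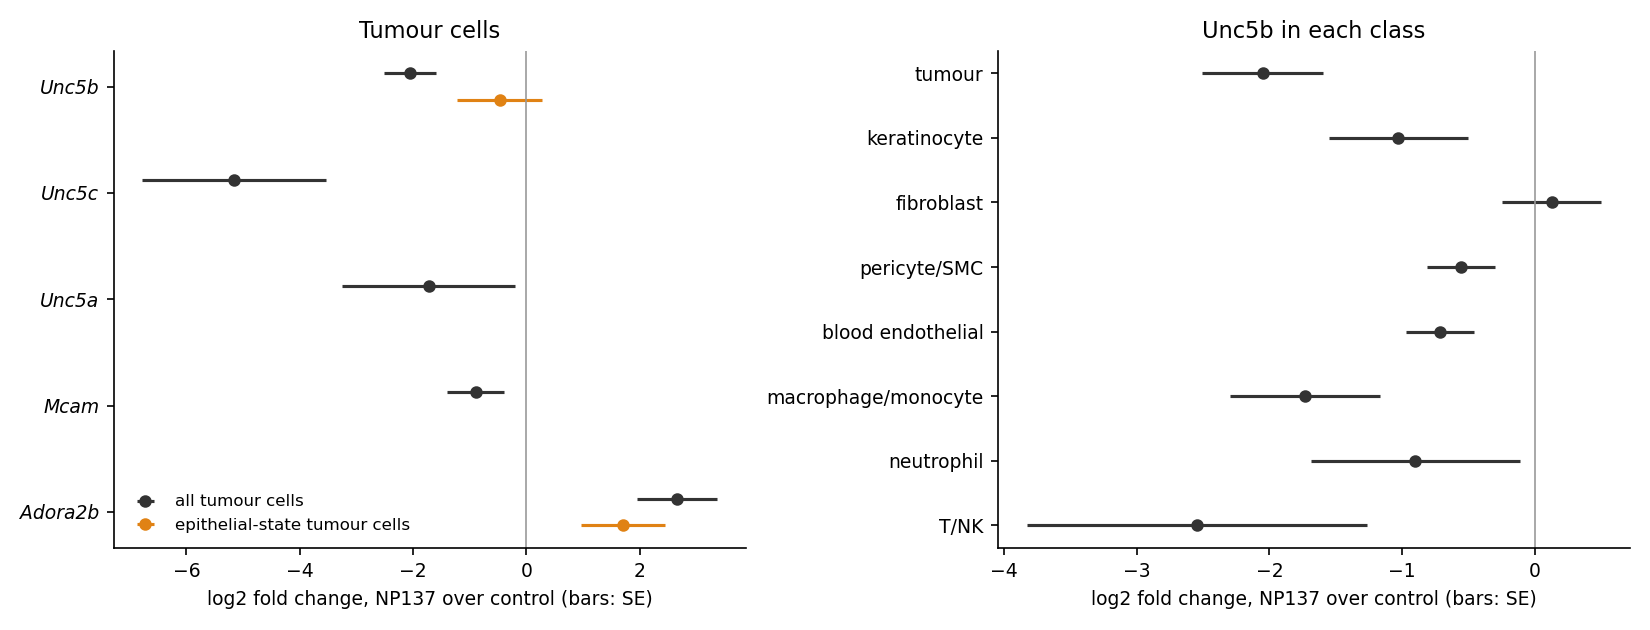
Log2 fold change of NP137 over control with bars of 1 SE from edgeR, at left for the 5 tested members in tumour cells (all, and those of epithelial state alone for the 2 genes tested there), at right for Unc5b in each of the 8 classes. The tumour estimates of Unc5b and Adora2b lie on opposite sides of 0 and both move toward 0 in epithelial-state cells, from -2.05 to -0.47 and from 2.66 to 1.70.

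In the other 7 classes, 0 of 18 member tests passed, 3 had an unadjusted p below 0.05, and DESeq2 called 0. Over all genes, 2 of 11007 were called in keratinocytes (0.0182%) and 0 in each of the other 6 classes. Unc5b in blood endothelial cells was lower in both NP137 libraries than in both controls (log2 fold change -0.71, SE 0.25), an order that 25.3% of genes had in that class. The same order held in macrophages (-1.73, SE 0.56, beside 21.4% of genes), in pericytes or smooth muscle cells (-0.56, SE 0.26, beside 18.7%), in keratinocytes (-1.03, SE 0.52, beside 26.8%) and in T or NK cells (-2.55, SE 1.28, beside 22.3%), so in 5 of the 7 classes. In fibroblasts it differed by 0.13 (SE 0.37), and by -0.00 when fibroblasts with a Cdkn2a UMI were left out. The fibroblast gate drew on different cell clusters by library. A cluster led by Mmp13, in which Unc5b was highest, made up 8.58%, 0.606%, 66.5% and 18.8% of its cells, and a cluster that was mostly tumour cells 49.3%, 1.21%, 0.296% and 0.0295%. Their part in the difference was not tested. Whether an effect differed between tumour cells and another class was tested 31 times, and 1 test passed, that of Adora2b against T or NK cells. Adora2b was too low to test in T or NK cells by themselves. The share of all genes that passed was 3.56% against keratinocytes, 3.79% against fibroblasts, 1.27% against pericytes or smooth muscle cells, 0.547% against blood endothelial cells, 0.433% against macrophages, 3.54% against neutrophils and 2.87% against T or NK cells. For Unc5b in tumour cells against fibroblasts the difference of effects was -2.30 (SE 0.49, edgeR adjusted p = 0.0739). It was -1.84 against neutrophils, -1.64 against pericytes or smooth muscle cells and -1.46 against blood endothelial cells. Against keratinocytes it was -0.90, against macrophages -0.69 and against T or NK cells 0.75, the opposite sign. None of these Unc5b differences passed (edgeR adjusted p from 0.0739 to 0.823). Adora2b in fibroblasts differed by 1.83 (SE 0.90, adjusted p = 0.528), and by 0.08 without NP137 2.

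Among T or NK cells of all libraries but NP137 2, Unc5b lay almost wholly in those with a UMI of Trdc. This gene encodes the constant region of the T cell receptor delta chain. The class held 24, 49, 14 and 5 Unc5b UMIs (119, 141, 57.6 and 3.21 CPM). Split by Trdc, a choice made after the data were seen, 88 of its 92 UMIs were in the 235 cells with a Trdc UMI. These cells held 336, 203, 136 and 9.10 CPM, and 51.5%, 52.3%, 15.4% and 2.50% of them had an Unc5b UMI. Cells with Cd3e, a subunit of the T cell receptor complex, but without Trdc held 10.8, 0, 0 and 2.73 CPM. In NP137 2 they held 3 of the 5 Unc5b UMIs and the Trdc cells 2. The levels of Trdc cells in control 1, control 2 and NP137 1 were above the endothelial levels of the same libraries, and NP137 2 stood apart from the other 3. The class as a whole differed by a log2 fold change of -2.55 (SE 1.28), which was not called (adjusted p = 0.768). Without NP137 1 it was -5.08 (adjusted p = 8.3e-10), a value that rests on NP137 2 as the lone treated library.

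**Figure D4:**
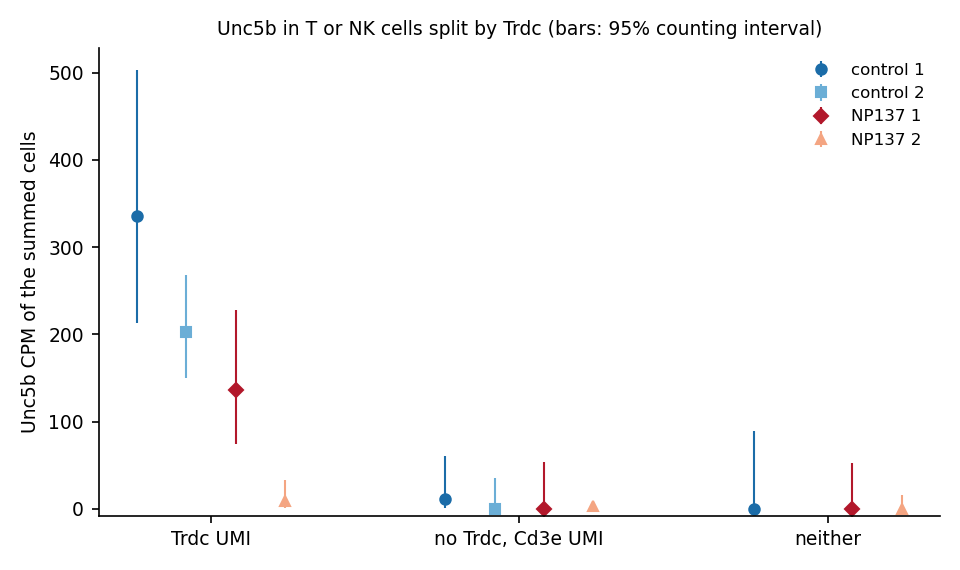
Unc5b CPM in T or NK cells of each library, divided by the presence of a Trdc UMI and, without it, of a Cd3e UMI, with 95% exact Poisson intervals. Cells with Trdc hold 336, 203 and 136 CPM in control 1, control 2 and NP137 1 and 9.10 CPM in NP137 2. Cells without Trdc stay at or below 10.8 CPM, with intervals that reach up to 88.8 CPM where cells are few.

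Fibroblasts were not uniform in their receptors. All cells were clustered together by the Leiden method, and 5 of these clusters held at least 100 of the 7309 cells of the fibroblast gate. They are named here by leading genes of those cells, and values are given without a test, a division made after the data were seen. The cluster led by Mmp13, a collagenase, and Gzme held the most Unc5b, at 162, 101 and 110 CPM in control 1, NP137 1 and NP137 2. Its Unc5c was 6.32, 3.75 and 3.53 CPM. The cluster led by Fmod, which encodes a collagen-binding proteoglycan, held the most Unc5c, at 12.9, 18.4, 12.2 and 11.9 CPM, with Unc5b at 104, 24.6, 56.1 and 56.1 CPM.

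Another cluster, led by Ly6c1 and Clec3b, held little Unc5b (0, 10.9 and 6.0 CPM in control 1, NP137 1 and NP137 2) and much Adora2b in NP137 2. There it reached 51.9 CPM, with 674 of that library's 1028 fibroblast UMIs, and made up 34.9% of its fibroblasts. The other libraries had 35, 4 and 32 cells of this cluster, with Adora2b at 17.4 CPM in control 1 and 0 in NP137 1. The cluster led by Col18a1 and Ank was mostly a tumour cluster, since 72.5% of its gated cells were of the tumour class. It held 49.3% of control 1 cells of the fibroblast gate, and 86.1% of those held a Cdkn2a UMI. Its Unc5b was 80.1 CPM there.

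**Figure D5:**
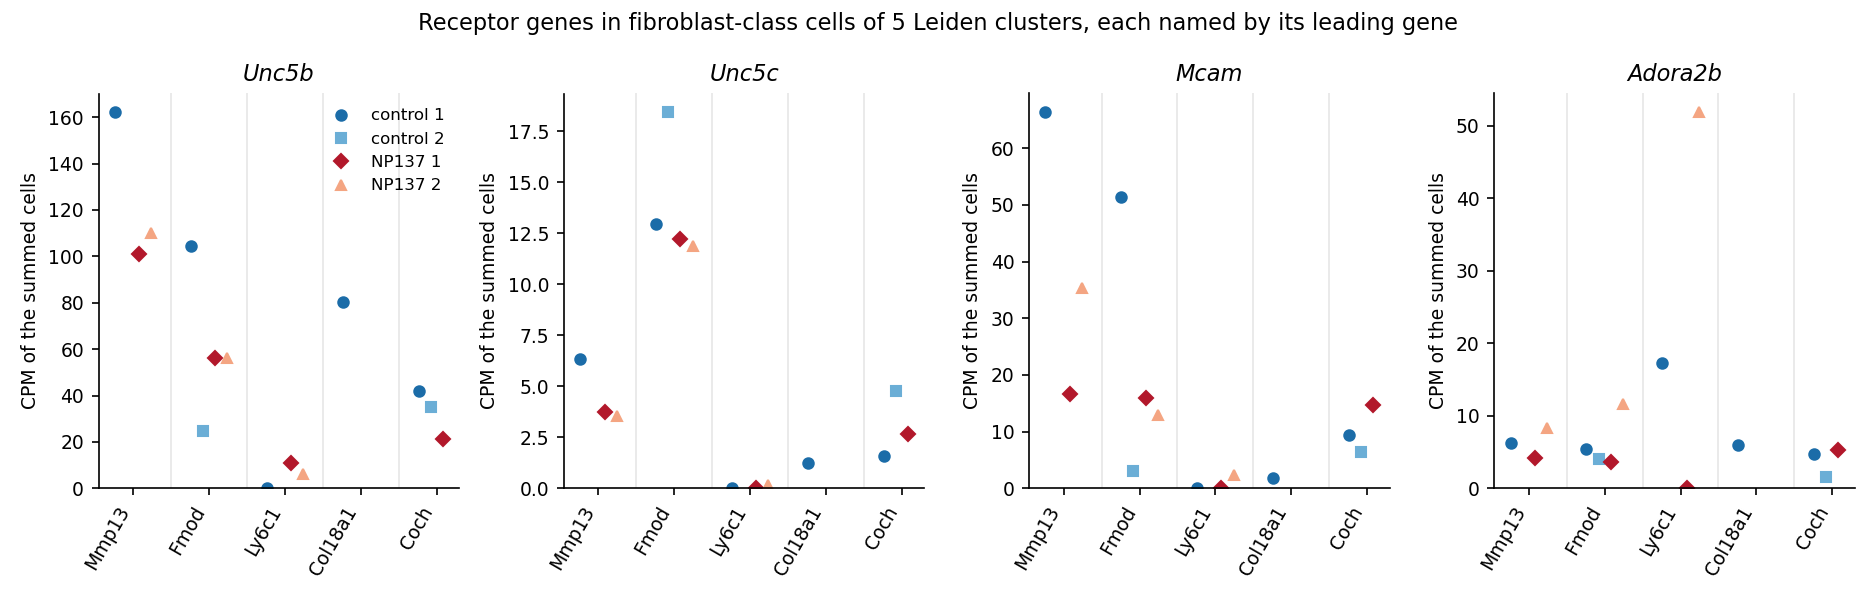
CPM of Unc5b, Unc5c, Mcam and Adora2b in cells of the fibroblast gate, by cluster (the Col18a1 cluster is mostly tumour cells), 1 point per library with at least 30 cells of a cluster. Unc5b is highest in the Mmp13 cluster (101 to 162 CPM) and Adora2b in the Ly6c1 cluster of NP137 2 (51.9 CPM).

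Among the tested classes, the ligand gene Ntn1 was carried mainly by mesenchymal tumour cells and cells of the fibroblast gate. Mesenchymal tumour cells held 69.9, 48.8 and 47.8 CPM in control 1, control 2 and NP137 1, and epithelial tumour cells 3.08, 1.62, 0.357 and 0.112 CPM. All tumour cells held 60.8, 45.0, 1.595 and 0.193 CPM, a log2 fold change of -5.52 (SE 0.83) that missed the threshold (adjusted p = 0.0551). Cells of the fibroblast gate held 93.65, 76.0, 40.0 and 7.60 CPM. In control 1, 693 of their Ntn1 UMIs lay in the Col18a1 cluster (144 CPM), which was mostly tumour cells. The cluster led by Coch and Wif1 held 262, 259, 157 and 96.3 CPM, the last from 16 cells. The Fmod cluster held 15.2, 15.35, 39.0 and 2.83 CPM. In control 1, NP137 1 and NP137 2, the Mmp13 cluster held 22.1, 22.5 and 9.47 CPM and the Ly6c1 cluster 78.1, 54.4 and 14.55 CPM. In thinned control tumour cells, Unc5b was detected in 10.7% of cells with an Ntn1 UMI and 10.6% of cells without one in control 1, and in 16.9% (15 of 89) and 10.9% in control 2.

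Around the receptors, 55 of 56 listed genes of netrin, MCAM and adenosine signalling were in the files. In the NP137 comparison of tumour cells, 0 of 48 tested genes rose and 3 fell. Of all 13690 genes 94 rose and 123 fell, 1.59% in both directions together. The median log2 fold change of the 48 genes was -0.35 against -0.03 for all genes. Of the 3 that fell, 2 belong to the MCAM ligands and partners, of which 8 were tested. Lama4, a laminin chain of vessel and mesenchymal basement membranes that binds MCAM, went from 88.3 and 70.5 to 4.53 and 2.90 CPM (log2 fold change -4.18, SE 0.35, adjusted p = 0.0400). Pdgfrb, the platelet-derived growth factor receptor of mesenchymal cells that MCAM binds as a coreceptor, went from 83.5 and 48.7 to 3.61 and 5.41 CPM (-3.65, SE 0.46, adjusted p = 0.0422). Fyn, a kinase that acts downstream of netrin receptors, went from 39.2 and 29.5 to 3.40 and 2.13 CPM (-3.39, SE 0.40, adjusted p = 0.0400). None of the tested netrin ligands, other netrin or RGM receptors, UNC5 partners, death signalling genes or adenosine genes passed.

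Between the states, 8 of 46 tested genes of these lists rose in mesenchymal tumour cells (7.48% of all genes) and 6 fell (6.91%), with a median of 0.10 against -0.07. Ntn1 rose by 5.38 on the log2 scale (SE 0.54, adjusted p = 0.000378), the only one of 3 ligands to pass. Of 5 other netrin or RGM receptors 2 fell, both subunits of the epithelial laminin receptor that also binds netrin: Itga6 fell by 2.39 (adjusted p = 0.000561) and Itgb4 fell by 2.43 (adjusted p = 0.00227). Of 7 UNC5 partners, the adhesion ligands Flrt3 and Flrt1 fell by 2.08 and 3.27, and Rgmb, a membrane-bound guidance ligand, rose by 1.24. Of 6 death signalling genes, Maged1, whose product binds UNC5A, rose by 1.12 (adjusted p = 0.0113). Of 7 MCAM ligands and partners 3 rose, namely Pdgfrb by 5.65, Lama4 by 5.14 and Lgals1 by 1.76, and 1 fell. None of 6 adenosine genes passed, and of 12 guidance signalling genes 2 rose and 1 fell, with Fyn higher by 2.51 (adjusted p = 0.00811).

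Over the 32 sums of a class in a library, which share libraries and depth, the gene with the pattern most like that of Unc5b was Fermt2, an integrin activator (Pearson r = 0.915 of log2(CPM + 1)), followed by Spry4, a feedback inhibitor of growth factor signalling (0.896), and Pkd1 (0.877). For Mcam these were Filip1 (0.941), Emid1 (0.928) and Gja4, an endothelial gap junction gene (0.920). For Adora2b the likeness was weaker, with Ass1, an enzyme of arginine synthesis, at 0.679, Rac3 at 0.645 and Serp1 at 0.627.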

How the data were processed

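The files hold UMI counts per gene and cell barcode of 4 libraries (10x 3′ chemistry), as deposited by the authors, per the file headers made with 10x software version 3.0.2. Genome build mm10 and Seurat 3.1.5 are named in the submitters' processing notes. Barcodes of fewer than 200 genes, or of 20% mitochondrial UMIs and more, were dropped, and the cells with the highest Scrublet doublet scores were removed, at 0.8% per 1000 barcodes. Tumour cells had at least 2 YFP UMIs, 1 Cdkn2a UMI and no Ptprc, Pecam1 or Cdh5 UMI. Other cells took the class, among 13 lists of 8 markers, with at least 3 detected markers and 2 more than any other list. Keratinocytes and fibroblasts also had no YFP UMI. For each class, the counts of a library were added up (at least 50 cells, states at least 20) and tested with edgeR 4.0.16 (quasi-likelihood, TMM, filterByExpr) in R 4.3.3, with adjustment over all genes. DESeq2 1.42.0, other filters and gates, and leaving out each library were alternatives. The code was tested on simulated data. Named genes were the 6 members in every class, Ntn1, up to 3 passing genes per listed group, and the 3 genes most like each member. The members, lists and tests were chosen with earlier results of these data known. Part of the mouse genotype, which all 4 libraries share, is not reported here.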

Additional observations from a re-analysis of the deposited data

Results flagged for a closer look

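For Adora2b, the NP137 effect in tumour cells differed from that in T or NK cells by 4.58 on the log2 scale (SE 1.36, edgeR adjusted p = 0.0347), a difference between cell classes under the same contrast. It was the only 1 of 31 such tests over the members and classes to pass, and 2.87% of all genes passed the same test. In T or NK cells by themselves Adora2b was too low to test. It passed the filter on low counts here only together with the tumour sums. Tumour cells held 4.39 and 1.70 CPM of Adora2b in control and 10.3 and 22.6 CPM in NP137, while T or NK cells held 19.8 and 5.76, then 8.22 and 1.92 CPM, on 4, 2, 2 and 3 UMIs. Leaving out each library in turn gave 2.49 to 5.57, and the call held in 1 of the 4 fits, that without NP137 1 (adjusted p = 0.00714).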

How the results depend on the processing

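The number of genes called in NP137 against control tumour cells, 217, was 2187 with DESeq2, 1481 with no filter on low counts, 341 with stricter cell filters, 1 with tumour cells taken from clusters, 0 with no doublets removed, 0 in epithelial-state cells alone, and 0 to 299 when each library was left out. Of the members, 0 were called, and 3 with DESeq2 and 3 with no filter. Over 8 classes, the deviations of same-numbered libraries correlated at -0.03 to 0.23, highest in neutrophils and macrophages. With 2 libraries in each group this cannot show whether the numbers pair them. With the replicate block 199 genes and 0 members were called. In the other classes, where 0 members were called, no filter gave 2 and leaving out libraries 0 to 1. Between classes, 13 calls became 12 to 18 over all alternatives and 12 to 15 over left-out libraries. Between tumour states, 1 call became 2 with no filter, 2 with no doublets removed and 0 to 1 over left-out libraries, and for differing effects 1 became 0 to 4. The difference of Unc5b shares, -8.67 percentage points, was -3.94 at 1000 UMIs and -37.8 unthinned, by construction. Signs turned for differences that were not called. Without control 1, Unc5a in tumour cells was 0.14 (-8.76 to 0.14 over left-out libraries). Unc5b in fibroblasts was -0.20 without control 2, -0.25 without NP137 1 (-0.25 to 0.57) and -0.0027 without Cdkn2a, and in tumour cells against other classes 0.10 with no filter, 0.05 without NP137 1 and 0.23 without NP137 2 (-0.29 to 0.23). The cause was not tested. Of 598 refitted values 37 changed sign, none of them called, 15 gained a call and 8 lost one. Low counts of Unc5a, Unc5c and Dscam limit what could be detected.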

Other observations

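Lymphatic endothelial cells, too few for a test, held the highest Unc5b values of any class with a marker list, at 369, 378, 256.5 and 189 CPM in control 1, control 2, NP137 1 and NP137 2, on 44, 25, 22 and 14 UMIs from 33, 8, 34 and 9 cells. Melanocytes held Mcam at 134.5, 85.8 and 34.6 CPM in control 1, control 2 and NP137 1, from 15, 13 and 99 cells. Of the Dscam UMIs, 5 lay in 3 of 56 dendritic cells. In blood endothelial cells thinned to 2000 UMIs, Unc5b was detected more often in cells with an Mcam UMI than in those without in all 4 libraries, at 22.1% against 13.6%, 25.6% against 13.5%, 12.75% against 11.1% and 18.4% against 10.5%. No test was made over cells.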
